A study of Mus musculus with 2 samples.

Results

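Immediate early genes are the genes that a cell transcribes first after a stimulus, before any new protein is made. The 9 described here are Fos, Fosb, Jun, Junb, Jund, Egr1, Atf3, Ier2 and Dusp1. They were listed by symbol, with earlier results of these data known, and all 9 of 9 were found among the 18685 genes of the library. Their UMIs, the unique molecular identifiers that count single transcripts, were summed over the cells of each cluster named by the authors. The cells came from grafts of Hep1-6, a mouse hepatoma line, in wild type C57BL/6 male mice of 6 to 8 weeks on a normal diet. One group received an antibody against SIGLEC15, a receptor that binds sialic acid, into the peritoneal cavity, and the other received IgG by the same route. Each group had 3 mice and 1 library, so single mice cannot be told apart. Of the IgG library 0 of the 9 genes were at hand, so all values come from the antibody library and no effect of the antibody was analysed here.

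Fos and Fosb pair with a Jun protein to form AP-1, a basic leucine zipper factor that binds DNA as a dimer. Signals from growth factors, cytokines, adhesion and stress reach these genes through MAP kinases, and serum response factor and CREB sit on several of their promoters beforehand. Their transcripts are short-lived, and enzymatic dissociation of tissue at warm temperature is itself a known inducer. Here the tumours were digested with collagenase at 37 °C for 30 min, a step that all the cells shared. Cells enriched on CD45 beads and unsorted cells were loaded in equal parts, so the cells did not share every step of handling. The part of the bead step in the levels was not tested.

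The 4 clusters named MDSC_1 to MDSC_4 (myeloid-derived suppressor cells, 707 cells) held the highest cluster for 8 of the 9 genes among the 26 clusters with at least 50 cells. For Jund that was MDSC_4 alone, whose interval overlaps that of CD3_T, while MDSC_1 had 339 CPM. Fosb was the exception, with its highest level in the cluster named Fibroblast&Endothelial_1. How often other genes were highest in MDSC_1 to MDSC_4 was not counted, so no share over all genes stands beside this count. In a median MDSC_1 to MDSC_4 cell, 1.75% of all UMIs came from the 9 genes, against 0.288% in a macrophage, 0.156% in a T cell and 0.160% in a tumour cell. Jund differed least between clusters, and T cells had the lowest CPM of the 4 immune classes described for Fos, Jun, Junb, Egr1, Atf3 and Dusp1.

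The library held 5482 cells with 553 to 46558 UMIs each and a median of 13714.5. Median depth was 20428 UMIs in the 3213 tumour cells, 6946.5 in the 532 macrophages, 3856.5 in the 382 T cells (CD4 and CD8 clusters), 3796 in the 208 cells of the cluster named DC, 9775 in the 150 cells of the fibroblast and endothelial clusters, called stroma below, and 1047 in MDSC_1 to MDSC_4. Levels are given as CPM, a gene's UMIs scaled to the total of the class, and again as UMIs per cell. The 95% intervals cover counting error only, because cells of 1 library are not replicates, and no test was made. The 9 genes may have been among those the clusters were built on, so a ratio between them is a description. MDSC_1 to MDSC_4 carried all 8 of 8 neutrophil markers at least 2-fold over other cells, at 38773 to 160329 summed CPM. The cluster named MDSC_5 (37 cells) had 7257 CPM of macrophage markers, 7 of 8 at least 2-fold over other cells, and 6123 CPM of hepatoma markers. Tumour cells had a like sum of macrophage markers, 7049 CPM, but with 1 of 8 at least 2-fold over other cells. CD3_T had more NK cell (5140 CPM) than T cell markers (4250 CPM). MDSC_5 was therefore left out of the MDSC class and CD3_T out of the T cell class. Both still count among the immune cells and the other immune cells in the ratios below. The DC cluster had 2980 CPM of monocyte markers against 336 CPM of dendritic cell markers. Stroma had 28939 CPM of fibroblast and 288 CPM of endothelial markers, sums of transcripts that do not give the shares of these cells. Scrublet marked 3 cells as doublets, 0.0547% of all, too few for the content of doublets to be judged from it. Whether the authors had removed doublets is not given, and 11 cell barcodes occurred in both libraries.

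The promoters of 6 of these genes are shown because each holds a match to a motif searched, among them letters that CREB and EGR factors are known to bind. Each line is the strand of the gene, 5′ to 3′, and ends at the base before the start of transcription in RefSeq on GRCm38.p6. Capitals mark a match to a motif searched over 250 bases before the start.
Fos: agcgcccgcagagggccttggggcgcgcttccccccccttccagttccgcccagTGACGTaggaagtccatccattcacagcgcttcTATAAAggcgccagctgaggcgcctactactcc
Jun: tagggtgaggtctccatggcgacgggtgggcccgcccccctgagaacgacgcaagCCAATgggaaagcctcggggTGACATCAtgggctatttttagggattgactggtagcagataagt
Junb: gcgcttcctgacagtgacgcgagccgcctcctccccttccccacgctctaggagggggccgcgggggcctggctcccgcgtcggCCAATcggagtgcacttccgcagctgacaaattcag
Fosb: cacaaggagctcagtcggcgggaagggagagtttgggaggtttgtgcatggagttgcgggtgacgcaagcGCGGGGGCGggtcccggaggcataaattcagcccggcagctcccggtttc
Atf3: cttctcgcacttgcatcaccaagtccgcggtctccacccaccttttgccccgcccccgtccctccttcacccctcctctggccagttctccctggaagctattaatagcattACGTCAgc
Dusp1: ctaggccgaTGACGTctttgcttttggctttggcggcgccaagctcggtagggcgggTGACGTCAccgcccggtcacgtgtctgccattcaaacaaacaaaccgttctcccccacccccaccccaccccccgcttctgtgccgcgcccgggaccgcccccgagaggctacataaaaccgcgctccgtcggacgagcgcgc
The Fos window is chr12:85473770-85473889 on the plus strand, and its gene spans chromosome 12 from 85473890 to 85477273. The Jun window is chr4:95052223-95052342, that of Junb is chr8:84978749-84978868, that of Fosb is chr7:19310046-19310165, that of Atf3 is chr1:191183334-191183453 and that of Dusp1 is chr17:26508473-26508672, all on the minus strand.

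Motifs were searched on both strands, and positions count back from -1, the base before the start. The CREB core TGACGT stood at -66 in Fos, where a TATA box (TATAAA) followed at -33, and on the minus strand at -8 in Atf3. Dusp1 held TGACGT at -191, and the full palindrome TGACGTCA at -143, within which the core is read on both strands. Jun held TGACATCA, a variant looked for after the sequences had been seen, at -45, and CCAAT at -65. Junb held CCAAT at -36, and Fosb held the EGR motif GCGNGGGCG at -50. Of 32851 promoter windows of the same length, 6.47% hold TGACGT, 1.55% TGACGTCA, 2.93% TGACATCA, 4.70% GCGNGGGCG, 12.4% TATAAA and 33.8% CCAAT. The AP-1 motif TGANTCA (6.75% of windows), the CArG box bound by serum response factor (1.47%) and the STAT motif TTCNNNGAA (7.02%) were in 0 of the 7 windows that could be searched, Jund included. Egr1 and Ier2 had no window that could be searched, and no base further upstream than the searched windows was looked at. The absence of these motifs is therefore stated for the 7 windows alone, not for the whole promoters. A match is a description of letters, not of binding.

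**Figure D1:**
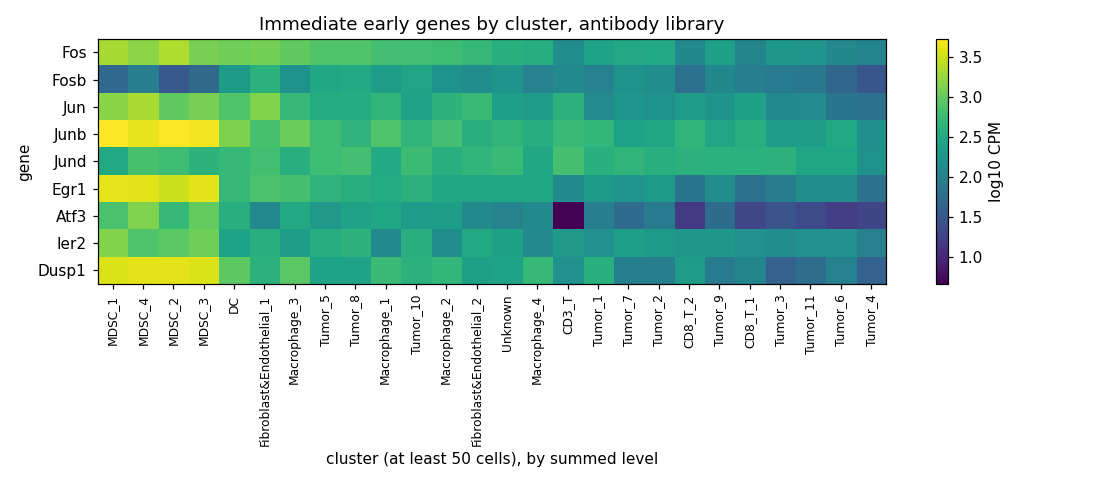
Level of each of the 9 genes (rows) in the 26 clusters with at least 50 cells (columns, ordered by the summed level), as log10 CPM in colour. The 4 leftmost columns, MDSC_1 to MDSC_4, are brightest for Junb, Egr1 and Dusp1 and dark for Fosb, and the Jund row is nearly even.

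Fos, the founding AP-1 subunit, reached 1812 CPM (1722 to 1905) in MDSC_1 to MDSC_4, 1125 CPM in the DC cluster, 1045 CPM in stroma, 664 CPM in macrophages, 372 CPM in tumour cells and 118 CPM (104 to 134) in T cells. By cluster it was highest in MDSC_2 (2266 CPM) and MDSC_1 (2110 CPM), whose intervals overlap, and MDSC_3 was lower at 1240.0 CPM. Macrophage clusters ran from 370.3 CPM in Macrophage_4 to 954 CPM in Macrophage_3. Fibroblast&Endothelial_1, at 1200 CPM (1137 to 1266), did not differ from MDSC_3 beyond counting error.

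Fosb, the paralogue whose truncated form is long-lived in neurons, had another order. It was highest in Fibroblast&Endothelial_1 at 430 CPM (392 to 470), followed by Tumor_8 at 342 CPM (325 to 358), and those intervals did not overlap. By class it reached 366 CPM in stroma, 216 CPM in the DC cluster, 196 CPM in macrophages, 161 CPM in tumour cells, 88.4 CPM in T cells and 55.4 CPM (40.7 to 73.7) in MDSC_1 to MDSC_4. In those 707 cells it rested on 47 UMIs, so its low place there is measured on few molecules. Fos and Fosb were thus at opposite ends of the order in the same cells.

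Jun, the main partner of Fos, reached 1424 CPM (1345 to 1507) in MDSC_1 to MDSC_4 and 1199 CPM (1143 to 1257) in stroma. It was 784 CPM in the DC cluster, 455 CPM in macrophages, 254 CPM in T cells and 191 CPM in tumour cells. MDSC_4 stood above every other cluster at 2178 CPM (1955 to 2420), against 1500.0 CPM in MDSC_1, and MDSC_2 was the lowest of the 4 at 959 CPM. Fibroblast&Endothelial_1, at 1386 CPM, stood between MDSC_1 and MDSC_3 (1240.0 CPM).

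Junb, which can oppose Jun at AP-1 sites, reached 4866 CPM (4719 to 5017) in MDSC_1 to MDSC_4, with 4029 to 5280 CPM over the 4 clusters. The next class was the DC cluster at 1318 CPM. Macrophages had 743 CPM, stroma 613 CPM, T cells 461 CPM and tumour cells 368 CPM. The small CD4_T cluster (47 cells) had 1112 CPM, against 388 CPM in CD8_T_1 and 469 CPM in CD8_T_2.

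Jund is the member of the Jun family that resting cells keep expressing. Its class levels were 592 CPM in stroma, 517 CPM in the DC cluster, 493 CPM in MDSC_1 to MDSC_4, 443 CPM in tumour cells, 443 CPM in T cells and 374 CPM in macrophages. The highest cluster, MDSC_4 at 680 CPM, and the next, CD3_T at 670.0 CPM, had overlapping intervals, and the highest was 4.07 times the lowest, Tumor_4.

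Egr1, a zinc finger factor induced through serum response factor, reached 3735 CPM (3606 to 3867) in MDSC_1 to MDSC_4. Stroma had 611 CPM, the DC cluster 508 CPM, macrophages 381 CPM, tumour cells 231 CPM and T cells 64.9 CPM (54.4 to 76.9). The 4 MDSC clusters held 3072 to 4099 CPM, and the next cluster, Fibroblast&Endothelial_1, held 701 CPM. Its lowest level was 60.2 CPM, in CD8_T_1.

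Atf3, a stress-induced bZIP repressor of inflammatory genes, reached 853 CPM (792 to 918) in MDSC_1 to MDSC_4, 394 CPM in the DC cluster and 269 CPM in macrophages. Stroma had 129 CPM, tumour cells 100.1 CPM and T cells 21.5 CPM (15.6 to 28.8). MDSC_4 was highest at 1341 CPM and its interval lay above that of MDSC_3 at 988 CPM. In CD3_T it was found as 1 UMI in 138 cells, 4.69 CPM.

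Ier2, a nuclear protein induced with the AP-1 genes, reached 1066 CPM (997 to 1137) in MDSC_1 to MDSC_4 and was flatter elsewhere. Stroma had 375 CPM, the DC cluster 278 CPM, tumour cells 236 CPM, T cells 170 CPM and macrophages 160.0 CPM. The intervals of T cells (153 to 189) and macrophages (148 to 173) overlap. MDSC_1 was highest at 1378 CPM and MDSC_4, the highest cluster for Atf3 and Jun, was lowest of the 4 at 755 CPM.

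Dusp1 encodes the phosphatase that switches MAP kinases off again, so it is feedback in the pathway that induces the others. It reached 3801 CPM (3670 to 3934) in MDSC_1 to MDSC_4 with a narrow range over the 4 clusters, 3618 to 4012 CPM. The DC cluster had 890 CPM, macrophages 578 CPM, stroma 394 CPM, tumour cells 184 CPM and T cells 155 CPM. Its lowest cluster was Tumor_3, at 42.3 CPM.

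In MDSC_1 to MDSC_4 against all other immune cells, 7 of the 9 genes were at least 2-fold higher with an interval that excludes 1, a rule that 11.2% of 9278 genes met, and 1 was lower, where 39.5% of genes were. Egr1 stood at 12.5 times (11.9 to 13.2), Dusp1 at 7.94 times, Junb at 6.76 times and Ier2 at 5.94 times the CPM of other immune cells. Atf3 stood at 4.28, Fos at 3.35 and Jun at 3.30 times. Jund did not meet the rule, at 1.15 times (1.04 to 1.27), and Fosb was lower at 0.334 times (0.244 to 0.447). The median log2 ratio of the 9 genes was 2.10, beside -0.78 over all genes. With Macrophage_4, the MDSC clusters were also the shallowest immune clusters, at 950.0 to 1183 median UMIs, and their ribosomal protein share was 4.76% to 7.04% of UMIs. Other clusters had 14.3% or more, and the part of this in the ratios was not tested. Leaving ribosomal, mitochondrial and haemoglobin genes and Malat1 out of the total gave 7 genes again.

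Counted per cell, the picture was narrower. An MDSC_1 to MDSC_4 cell held 4.48 UMIs of Egr1 against 1.72 in another immune cell, 2.60 times as many, and this was the 1 gene of 9 at least 2-fold higher per cell, where 1.58% of genes were. Dusp1 was at 4.56 against 2.76 UMIs per cell (1.65 times) and Junb at 5.84 against 4.15 (1.41 times). Jund (0.239 times) and Fosb (0.0694 times) were the 2 lower genes, where 91.2% of all genes were lower. Thus 7 of the 9 genes lay outside the 2-fold fall in UMIs per cell that most genes showed. A smaller cell with less RNA and a cell from which less RNA was captured cannot be told apart here.

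**Figure D2:**
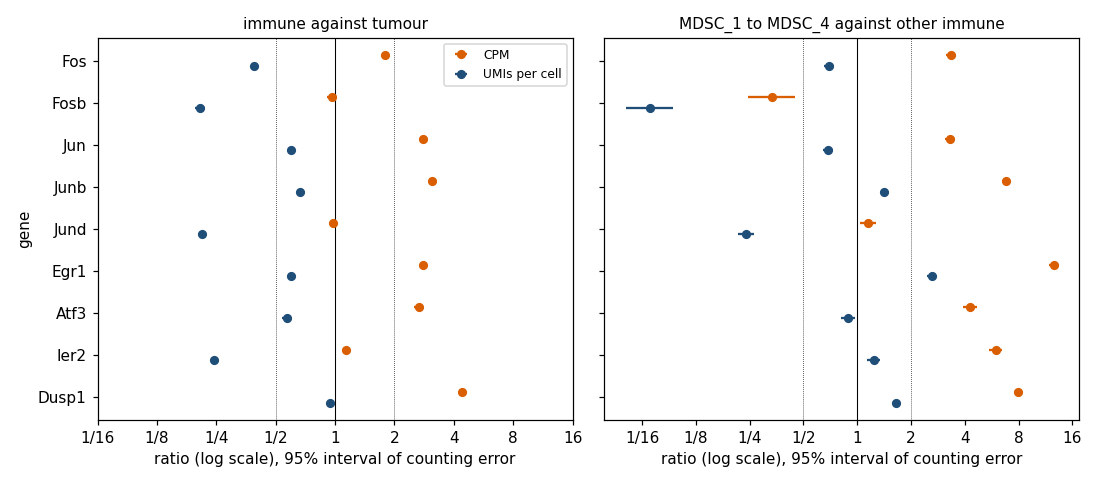
Ratios of the 9 genes (rows) for immune against tumour cells (left) and MDSC_1 to MDSC_4 against other immune cells (right), on a log axis, as CPM (orange) and UMIs per cell (blue), with bars for the 95% interval of counting error and dotted lines at 2-fold. On the right Egr1 is the only gene at least 2-fold higher on both scales, at 12.5 and 2.60 times, and Fosb is lower on both, at 0.334 and 0.0694 times.

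Within the MDSC clusters the summed level was somewhat higher in shallow than in deep cells. The 354 shallower cells (median 894 UMIs) held 19187 CPM of the 9 genes and the 353 deeper cells (median 1291 UMIs) held 17477 CPM. Atf3 was at 979 and 780 CPM and Dusp1 at 4213 and 3561 CPM, while Jun and Fosb were slightly higher in the deeper cells. Both parts had fewer median UMIs than the other classes described, so this comparison does not reach the depth of those classes. Thinning every cell to 1000 UMIs, which left out 302 of the 707 cells, put Junb in 96.0% of MDSC_1 to MDSC_4 cells, Egr1 in 88.8% and Dusp1 in 84.5%. The unthinned shares were 95.2%, 88.4% and 84.9%. No class is known to lack these genes, so the lowest class stands beside them: Junb was in 27.6% of thinned tumour cells (median depth 20428 UMIs) and Egr1 in 5.49% of thinned T cells (3856.5 UMIs). Fosb was found in 5.27% of thinned MDSC cells, below the 9.53% of T cells. Jun and Jund were not highest in MDSC_1 to MDSC_4 on this measure either. Jun was in 52.3% of thinned MDSC cells and 56.0% of stroma cells, and Jund in 34.3% and in 39.7% of the DC cluster. Fos was in 62.4% of thinned MDSC cells, close to the 57.3% of the DC cluster. For Junb, Egr1, Atf3, Ier2 and Dusp1 the share was also highest in MDSC_1 to MDSC_4.

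**Figure D3:**
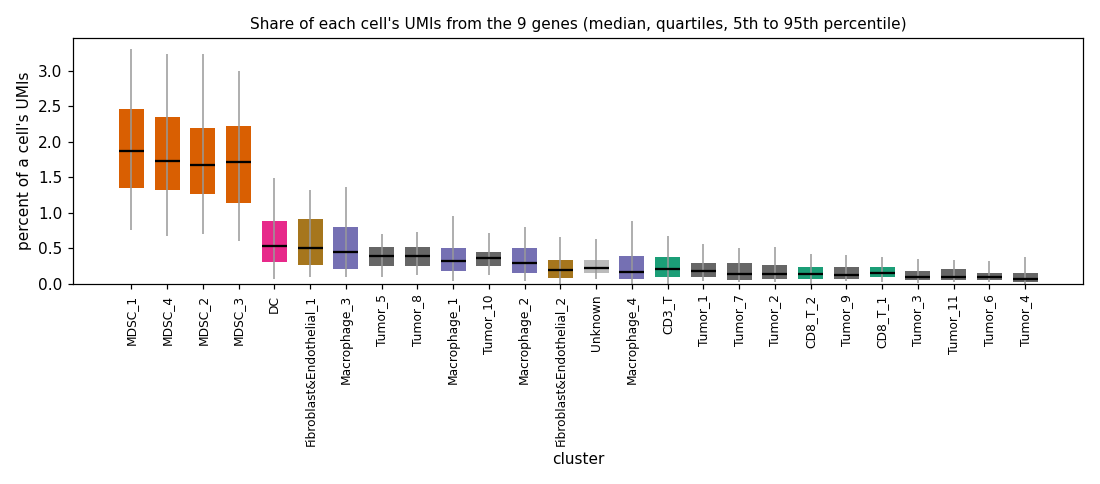
Share of each cell's UMIs that came from the 9 genes, by cluster of at least 50 cells: line for the median, box for the quartiles, thin line from the 5th to the 95th percentile. The medians of MDSC_1 to MDSC_4 lie between 1.68% and 1.87%, and the next, the DC cluster, lies at 0.531%.

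Immune cells as a whole had 5 of the 9 genes at least 2-fold above tumour cells in CPM, where 25.0% of 12470 genes were, and 0 lower, where 19.7% were. Dusp1 stood at 4.42 times, Junb at 3.09, Jun at 2.78, Egr1 at 2.78 and Atf3 at 2.65 times. Fos was at 1.80, Ier2 at 1.14, Jund at 0.982 and Fosb at 0.961 times. Per cell the order turned: 0 genes were higher (background 9.79%) and 4 were lower (background 78.5%), namely Fosb, Jund, Ier2 and Fos. A tumour cell held 7.23 UMIs of Fos and an immune cell 2.79. Dusp1 was nearly even at 3.39 and 3.58 UMIs per cell. With cells of at least 2000 UMIs alone, which left 50 of the 707 MDSC_1 to MDSC_4 cells, Egr1 stood at 1.59 times in CPM and 4 genes were higher. The immune side pools MDSC_1 to MDSC_4 with the rest, and a comparison with tumour cells without them was not made. Enrichment on CD45 beads may have touched the immune and tumour sides unequally, and its part in these ratios was not tested. T cells alone had lower CPM than tumour cells for Fos, Fosb, Egr1, Atf3, Ier2 and Dusp1, and higher CPM for Jun and Junb.

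Macrophages had 0 genes higher and 2 lower than other immune cells in CPM, Egr1 at 0.439 and Ier2 at 0.442 times (backgrounds 9.46% and 7.89%). This depended on the cells they were set against. Without MDSC_1 to MDSC_4 in the comparison group, Egr1 stood at 1.82 times and 1 gene was higher (Atf3, 2.14 times), beside 10.9% of all genes. Per cell, Fos (2.37 times), Fosb (3.95 times) and Atf3 (2.47 times) were higher, 3 of 9 genes beside 68.1% of all genes, and 0 were lower (1.06%). T cell markers summed to 956 CPM in macrophages, with 11 of 12 at least 2-fold over other cells, and to 1786 CPM in Macrophage_2. Their part in the levels was not tested.

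The DC cluster had 0 genes higher (2.92%) and 0 lower (11.3%) in CPM, and the same counts per cell (3.69% and 9.36%). Without MDSC_1 to MDSC_4 in the comparison group 5 genes were at least 2-fold higher, Fos (2.44 times), Atf3 (2.28), Dusp1 (2.11), Junb (2.07) and Jun (2.05), where 4.55% of all genes were, and 0 were lower (12.5%). Of the immune clusters of at least 50 cells outside MDSC_1 to MDSC_4, the DC cluster (6028 summed CPM of the 9 genes) and Macrophage_3 (5209) were the highest. The same pair had the most neutrophil marker UMIs outside the MDSC clusters, 5183 and 4962 CPM, with 7 and 8 of the 8 markers at least 2-fold over other cells. The other macrophage clusters had 847 to 1445 CPM of these markers and 2494 to 3814 CPM of the 9 genes. The part of neutrophil RNA in these levels was not tested.

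T cells had 6 of 9 genes at least 2-fold lower than other immune cells in CPM, where 22.5% of genes were, and 0 higher, where 12.8% were. Atf3 stood at 0.0625 times, Egr1 at 0.0783, Fos at 0.140, Dusp1 at 0.152, Junb at 0.341 and Jun at 0.410. Jund was at 1.02 times (0.948 to 1.10). Per cell 5 genes stayed lower, without Jun, beside 16.4% of all genes, and 0 were higher (27.8%). The median log2 ratio was -1.55, beside 0.05 over all genes. Without MDSC_1 to MDSC_4 in the comparison group 5 genes were lower, beside 21.4% of all genes, and 0 higher (11.4%): Atf3 stood at 0.0809, Fos at 0.169, Egr1 at 0.169 and Dusp1 at 0.260 times, Fosb joined them at 0.454, and Jun (0.511) and Junb (0.565) no longer met the rule.

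Stroma had 5 of 9 genes at least 2-fold above tumour cells in CPM, where 19.4% of 11795 genes were, and 0 lower (13.1%). Jun stood at 6.29 times (5.97 to 6.61), Fos at 2.81, Egr1 at 2.64, Fosb at 2.27 and Dusp1 at 2.14 times. A stroma cell held 11.6 UMIs of Jun against 3.71 in a tumour cell (3.11 times), while the other 8 genes lay between 0.640 times (Atf3) and 1.39 times (Fos) per cell. Fibroblast&Endothelial_1 (96 cells) held 5968 summed CPM of the 9 genes and Fibroblast&Endothelial_2 (54 cells) 3076 CPM. Hepatoma markers summed to 639.8 CPM in the former and 4167 CPM in the latter, and fibroblast markers to 34814 and 8465 CPM. Their part in this difference was not tested. With both clusters weighted alike 3 genes passed in CPM. Ccn1 and Ccn2, matrix-associated immediate early genes of fibroblasts, were at 18.5 and 31.3 times tumour cells.

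Tumour cells were far from uniform. The summed level of the 9 genes ran from 760 CPM in Tumor_4 to 3959 CPM in Tumor_5 over 11 clusters, with a median of 1959 CPM. Tumor_5, Tumor_8 (3944 CPM) and Tumor_10 (3718 CPM) were the 3 highest, and Tumor_1 came next at 2299 CPM. Each gene's highest tumour cluster was among those 3. They were ranked on the sum of the same 9 genes, so this is partly built in. Atf3 ran from 17.4 CPM in Tumor_6 to 267 CPM in Tumor_8, a ratio of 15.4. Fosb had a ratio of 11.0 between its ends, Dusp1 10.3, Fos 7.07, Egr1 7.04 and Jun 5.74.

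Ier2 (4.41), Jund (3.87) and Junb (3.68) varied less. All 9 ratios were above 2.08, the median over the 2442 genes compared. The ranking had an exception in Dusp1, for which Tumor_1 reached 404 CPM, close to the 434 CPM of Tumor_10, while its Fos was 274 CPM and its Jun 139 CPM. Tumor_4 was also the shallowest tumour cluster, at a median of 2483 UMIs, with 1.71% mitochondrial UMIs against 4.67% to 6.30% in the others. Without it Fosb had a ratio of 7.18, Jund 2.21 and Ier2 2.95, beside a median of 1.89. With cells of at least 2000 UMIs alone the ratios were wider, 23.7 for Atf3, 20.8 for Fosb and 10.6 for Egr1, beside a median of 2.18. Tumor_5, Tumor_8 and Tumor_10 had 21184 to 23025 median UMIs and Tumor_3, Tumor_6 and Tumor_11 had 20262 to 24288. The part of depth in the spread was not tested.

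**Figure D4:**
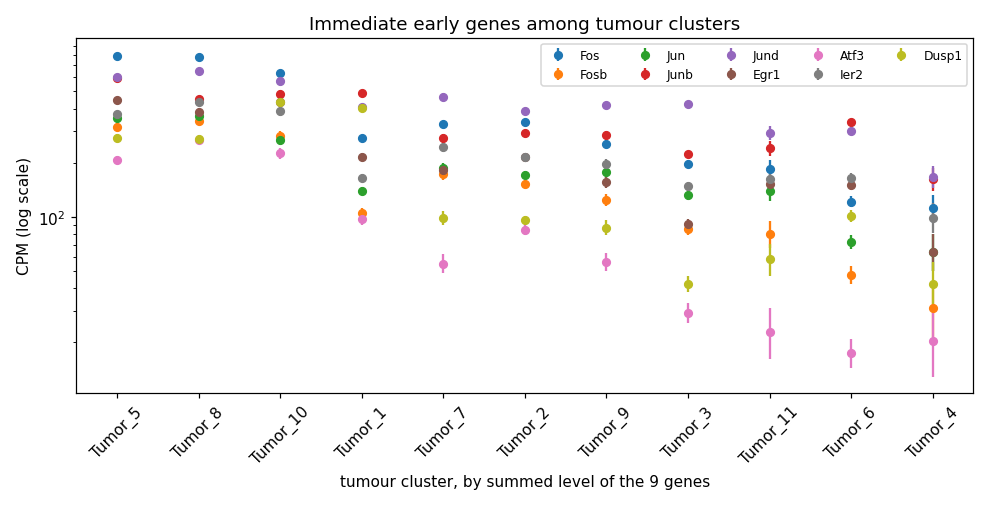
Level of each of the 9 genes (colours) in the 11 tumour clusters, ordered by summed level, as CPM on a log axis with 95% intervals of counting error. Levels are lower from left to right. Atf3 has the widest range, from 267 CPM in Tumor_8 to 17.4 CPM in Tumor_6, and Dusp1 departs from the order in Tumor_1 at 404 CPM.

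Pairs of the 9 genes tended to be found together in the same cells. Pairs of other genes were not counted, so no share over all genes stands beside the counts below. With each cell thinned to 1000 UMIs, all 36 pairs of the 9 genes were of this kind, a gene being more frequent in cells with its partner than in cells without, in tumour cells, macrophages, T cells, the DC cluster and stroma. The median ratio of the share with a partner to the share without it was 1.71 in tumour cells, 1.65 in stroma, 1.47 in macrophages, 1.41 in the DC cluster and 1.34 in T cells. In tumour cells Fosb was found in 24.4% of cells with Fos and in 8.65% of those without, and Atf3 in 16.6% and 4.87%. In macrophages Egr1 was found in 35.5% of cells with Fos and 20.6% without. In MDSC_1 to MDSC_4 the ratio was 1.05 and 27 of 36 pairs were found together more often: Egr1 was in 87.8% of cells with Fos and 90.4% of those without. Most classes pool several clusters, and the part of this in the pairs was not tested.

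Other early genes were grouped in lists to set beside the 9, and their ratios are in CPM. They are read beside the 11.2% of all genes that were higher in MDSC_1 to MDSC_4 than in other immune cells, the 39.5% that were lower and the median log2 ratio of -0.78. Of the genes for feedback and mRNA decay, 15 of 19 with enough UMIs were at least 2-fold higher in MDSC_1 to MDSC_4 than in other immune cells and 2 were lower, Dusp4 and Dusp10, with a median log2 ratio of 2.43. Ier3, an early survival gene, was at 4501 against 272 CPM (16.6 times), and Nfkbia, the inhibitor that resets NF-kB, at 3894 against 317 CPM (12.3 times). Btg1 was at 4252 against 804 CPM (5.29 times). Zfp36, which directs decay of AU-rich transcripts, stood at 7.19 times, Btg2 at 7.58 and Gadd45b at 12.6 times.

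Of other early transcription factors, 10 of 18 were higher and 5 lower (Nr4a2, Klf4, Myc, Ier5l and Id2), with a median log2 ratio of 1.34. Csrnp1 was at 12.2 times, Egr3 at 12.8, Nfkbiz at 9.86, Ier5 at 6.39, Klf2 at 5.25 and Klf6 at 2.33 times. Of other bZIP genes of the AP-1 and ATF families, 5 of 14 were higher and 3 lower, with a median of 0.01. Maff stood at 8.19 and Fosl2 at 5.35 times. In the MAP kinase, serum response factor and CREB list 3 of 25 were higher, Map3k8 (5.58 times), Map2k4 (2.23 times) and Mapkapk2 (2.03 times), and 5 were lower, with a median of -0.05, so the higher share was near that of all genes. Of 7 genes for turnover and coactivation of Jun and Fos proteins 0 were higher and Cops5 was lower, at 0.382 times.

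Heat shock genes encode chaperones. Of these, 0 of 13 were higher and 7 lower in MDSC_1 to MDSC_4, beside the 11.2% and 39.5% of all genes, with a median log2 ratio of -1.40 beside -0.78 over all genes. Hsp90ab1 was at 480 against 2675 CPM, and Hspa8 at 459 against 1634 CPM. Hspa1a and Hspa1b, the inducible HSP70 genes, did not meet the rule at 0.511 and 0.545 times. Summed over the 14 genes, MDSC_1 to MDSC_4 clusters held 1536 to 3349 CPM and tumour clusters 7047 to 11063 CPM. Within the MDSC group Hspa1a and Hspa1b summed to 258 CPM in MDSC_4 and to 15.7 to 42.9 CPM in the other 3, and MDSC_4 was also highest for Atf3, Jun and Jund. Tumour clusters held 0.191 to 1.77 CPM of that pair. Of the integrated stress response genes 4 of 11 were higher, Slc7a11 (13.3 times), Ppp1r15a (9.82), Sesn2 (8.50) and Ddit3 (6.16), and 2 lower, Psat1 and Phgdh.

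**Figure D5:**
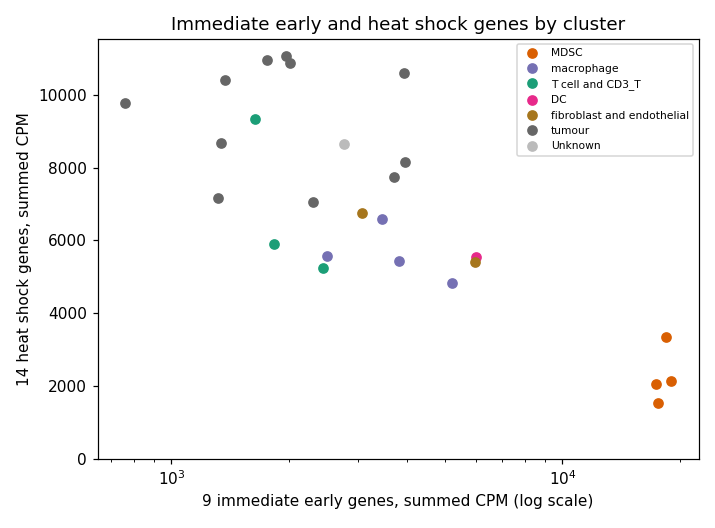
Summed CPM of 14 heat shock genes against summed CPM of the 9 immediate early genes (log axis), 1 point per cluster of at least 50 cells, coloured by class. The 4 MDSC clusters lie apart at 17395 to 18973 CPM of the 9 genes and 1536 to 3349 CPM of heat shock genes.

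In T cells the lists were low as well, against other immune cells that include the MDSC clusters, where 22.5% of all genes were lower and 12.8% higher: feedback and decay 14 of 19 lower and 2 higher, early transcription factors 12 of 18 lower and 2 higher, bZIP genes 9 of 14 lower and 1 higher. The genes that were higher were Nr4a2 (3.62 times), Ier5l (2.03 times), Batf (4.10 times), Dusp4 (2.09 times) and Dusp10 (2.39 times). Batf is a bZIP factor of T cell effector programmes and Nr4a2 an orphan receptor induced by antigen receptor signals.

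Over the 26 clusters the genes whose level was most like the summed level of the 9 were Nfkbiz (r = 0.97), Zfp36 (0.95), Btg2 (0.95), Ppp1r15a (0.95), Socs3 (0.94), Cd44 (0.93), Klf6 (0.93), Mcl1 (0.93), Ccnl1 (0.93) and Baz2b (0.92), among 6160 genes. Nfkbiz is an early NF-kB cofactor, Socs3 a feedback inhibitor of cytokine signalling and Mcl1 a survival factor. The measure is Pearson's r of log2 CPM with 20 added, a description over clusters of 1 library, in which the 4 MDSC clusters stand apart. For single genes the 2 most alike were Rhob and Zfp36 for Fos, Nfkbiz and Klf6 for Jun, Mcl1 and Ppp1r15a for Junb, Ier3 and Socs3 for Egr1, and Rhob and Ier3 for Atf3. Klf7 and Skil were nearest to Ier2, and Nfkbiz and Ppp1r15a to Dusp1. Fosb had no close match (Klf4 0.71, Bag3 0.70), nor did Jund (Ugcg 0.64, Klf2 0.62). The 21 pairs of the 7 other genes had r of 0.75 to 0.96 with each other, while Fosb had -0.20 to 0.25 with those 7 and Jund 0.34 to 0.56.

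Over single cells likeness was computed within a class. In the 3213 tumour cells the summed logged value of the 9 ran with Klf6 (r = 0.69), Btg2 (0.65), Trib1 (0.60), Klf4 (0.58) and Chka (0.58). In macrophages it ran with Zfp36 (0.65), Btg2 (0.59), Cxcl2 (0.56), Klf6 (0.53) and Pim1 (0.50). T cells gave lower values, led by Nfkbia (0.35), Btg2 (0.33), Cd69 (0.30), Casp4 (0.28) and Nfkbiz (0.27), and in MDSC_1 to MDSC_4 the highest was Btg2 at 0.25, too weak in sparse counts to describe. The same score had r of 0.32 with log depth in tumour cells, 0.39 in macrophages and 0.19 in T cells, so cells share depth as well as genes.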

How the data were processed

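Single-cell RNA libraries (10x 3' v2) were made from tumours of mice given IgG or an antibody against SIGLEC15, 1 library each. Cells enriched on CD45 beads and unsorted cells were loaded in equal parts, per the labels' protocols, so cell shares of the tumour are not given. Per the submitters' processing notes, Cell Ranger 2.1.1 was used. How cells were filtered and clustered, and on which genome build, is not given in the sources used here. The authors deposited natural log values of 1 plus 10000 times a gene's UMIs over the cell's total, with a cluster name for each cell. The form of these values was tested on the values. UMI counts were recovered from the deposited natural log values, and 0 of 15274637 were not whole within 0.001. Of the IgG matrix, 105 complete genes were at hand, none of the 9, and the rest was not analysed here.

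UMIs were summed by class, the groups of the authors' clusters given in the report, and scaled to CPM. Exact Poisson and Clopper-Pearson 95% intervals were used, and exact conditional intervals for ratios. A gene with at least 50 UMIs over both sides was called when at least 2-fold apart with an interval that excludes 1. UMIs per cell were added as a scale after the data had been seen. Shares after thinning to 1000 UMIs are expected values. Likeness used genes with at least 1000 UMIs, or a UMI in at least 10% of cells. The spread among tumour clusters was compared over genes with at least 500 UMIs and 50 CPM in tumour cells. The 9 genes, the gene lists and the markers were chosen with earlier results of these data known. Named genes were the 9, of each list up to 4 genes with the most UMIs and up to 6 past 2-fold, and the genes most like the 9. Genes of the lists named beyond this rule were chosen after their values were seen. Alternatives were depth minimums, scalings, weights, fold and UMI thresholds, and left-out clusters and doublets. The steps were tested on simulated data. Gene spans came from GENCODE M21, promoters from RefSeq. Software was Python 3.11.15, numpy 2.4.6, pandas 2.3.3, scipy 1.17.1, scanpy 1.11.5 (scrublet) and matplotlib 3.10.9. 1 gene of the lists is not reported here by name.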

Additional observations from a re-analysis of the deposited data

How the results depend on the processing

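Of 621 alternative values of the 54 ratios in CPM, 397 lay inside the interval of counting error, 222 lay outside it on the same side of 1 or were not called, and 2 called ratios changed side, both of Egr1 in macrophages against other immune cells: 1.07 with at least 2000 UMIs per cell and 1.82 without MDSC_1 to MDSC_4 in the comparison group. The fold thresholds and the minimum of UMIs per gene change only the call, so ratios under them equal the main ratios by construction. Leaving out doublets removed only 3 cells. The 397 include these values, so they are no measure of how stable the ratios are. Of 190 alternative counts, 166 stayed within 1.5 times and 24 moved. At 4-fold the genes higher in immune than in tumour cells fell to 1, those lower in MDSC_1 to MDSC_4 to 0, those lower in macrophages to 0 and those higher in stroma to 1. At 1.5-fold macrophages had 1 gene higher and 4 lower and the DC cluster 3 higher. With ratios divided by the median ratio of all genes, 0 genes were lower in MDSC_1 to MDSC_4 and 1 was higher in the DC cluster. With at least 1000 or at least 2000 UMIs per cell, 0 genes were lower in macrophages. With at least 2000, 2 were higher in the DC cluster and, per cell, 4 in MDSC_1 to MDSC_4. With a mean over cells of each cell's CPM, 5 genes were lower in macrophages and 1 for the DC cluster. With clusters weighted alike these were 4 and 1, and 3 genes were higher in stroma. Leaving ribosomal, mitochondrial and haemoglobin genes and Malat1 out of the total also gave 3 in stroma. Without MDSC_1 to MDSC_4 in the comparison group macrophages had 1 gene higher and 0 lower, and the DC cluster 5 higher. Without MDSC_5, Unknown, Adipocyte, Tumor_4, Macrophage_4 and CD3_T, macrophages had 5 genes higher per cell. Spearman correlation kept 6 of the 10 most alike genes. At 4-fold and 1.5-fold fewer or more genes pass by construction, and for the other settings the cause was not tested. The highest cluster of each gene could not be computed at 2000 UMIs, since no MDSC_1 to MDSC_4 cluster kept 50 cells. No paired analysis was possible because there is 1 library per group and the 9 genes of the IgG library were not analysed here. Depth limits Fosb in MDSC_1 to MDSC_4, which rests on 47 UMIs, and Atf3 in T cells, which rests on 44 UMIs.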
